A study of Mus musculus with 6 samples.

Results

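The cytosolic ribosomal protein genes are the genes for the proteins that, with ribosomal RNA, make up the ribosomes of the cytoplasm. They were chosen by annotation and name: protein-coding rows of the deposited table whose symbol starts with Rpl or Rps and a digit, with Rplp0, Rplp1, Rplp2 and Rpsa and without the Rps6k kinases. The rule gave 94 of the 54532 genes listed. Of these, 77 are the usual gene of 1 ribosomal protein each, 31 for the small subunit and 46 for the large subunit, and 17 are paralogs or look-alikes. Fau, which encodes a small-subunit protein fused to a ubiquitin-like protein, and Rack1, another small-subunit protein, have other names and are described beside the 94 without being counted.

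The study asked, by its title, about thyroid stimulating hormone, osteoclasts and osteoporosis. RNA was sequenced from CD11b+ cells taken by positive selection from the tibial bone marrow of mice aged 12 weeks, 3 libraries labelled Tshr-/- and 3 labelled Tshr+/+. Tshr is the gene of the TSH receptor, and CD11b is a surface integrin of neutrophils and monocytes. All 6 libraries carry the treatment label osteoclast differentiation, with no time and no described culture step, and the genotype label of the Tshr-/- libraries speaks of a knockdown. No strain, sex or pooling was given, and nothing says how the allele was made.

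Values were deposited as FPKM, fragment numbers scaled by gene length and library depth. Read back into whole fragments, the libraries held 14698126 to 17976477 fragments each. The depth behind the deposited FPKM was not this sum. It was 0.994, 0.954 and 1.121 times the sum in Tshr-/- libraries 1 to 3, against 0.966, 0.939 and 1.083 times in Tshr+/+ libraries 1 to 3. Tshr itself stood at 0.414, 0.297 and 0.00825 FPKM in Tshr-/- libraries 1 to 3, against 0.537, 0.552 and 0.405 FPKM in Tshr+/+ libraries 1 to 3. The libraries labelled Tshr-/- 1 and 2 thus still held Tshr fragments, 40 and 25 of them, so results are also given without them. Itgam, the gene of CD11b, had 106, 134 and 87.4 FPKM in Tshr-/- libraries, against 111, 125 and 114 FPKM in Tshr+/+ libraries. In bulk RNA of this kind, fewer cells of a type and less RNA per cell cannot be told apart.

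A ribosome holds its proteins in fixed proportions, and the mRNAs of these proteins are among the most abundant in most cells. Their transcripts start with a run of pyrimidines at the cap, the 5′ terminal oligopyrimidine (TOP) motif, through which the kinase mTOR and the RNA-binding protein Larp1 control their translation. In the marrow, loss of 1 copy of a ribosomal protein gene is known to impair red cell production: RPS19 is the best known gene of Diamond-Blackfan anaemia in humans, and RPS14 that of the 5q- syndrome. Ribosomal protein genes have also left many processed pseudogenes, intronless copies of their mRNA elsewhere in the genome.

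Stretches of 30 bases show the pyrimidine runs found around most of the annotated transcript starts available for members. They are from the RefSeq promoter table for GRCm38.p6, on the coding strand, with the longest run of C and T within 50 bases of the start in capitals, and the last 2 are shown because their longest run was short: the other annotated start of Rpl19, and Rps3a1.
Rps6, chr4:86857349-86857378, minus strand: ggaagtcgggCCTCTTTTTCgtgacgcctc
Rps10, chr17:27635227-27635256, minus strand: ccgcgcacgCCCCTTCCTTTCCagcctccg
Rps23, chr13:90923142-90923171, plus strand: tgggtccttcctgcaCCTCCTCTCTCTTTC
Rpl11, chr4:136053358-136053387, minus strand: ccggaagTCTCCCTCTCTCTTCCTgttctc
Rpl13a, chr7:45128722-45128751, minus strand: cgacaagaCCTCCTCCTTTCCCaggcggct
Rpl19, chr11:98026944-98026973, plus strand: gcggcccacaagCTCTTTCCTTTCgctgct
Rpl19 (other start), chr11:98026658-98026687, plus strand: cgacttagcgtgaCTTCCggctacccagag
Rps3a1, chr3:86142623-86142652, minus strand: acgtagacggcgCTCCCCgcccggctcgcg
The runs of these genes were 10 bases in Rps6, 13 in Rps10, 15 in Rps23, 17 in Rpl11, 14 in Rpl13a, 12 and 5 at the 2 starts of Rpl19 and 6 in Rps3a1. Counted from the annotated start, they began at −1 in Rps6, −3 in Rps10, 36 in Rps23, 14 in Rpl11, 3 in Rpl13a, 33 and −39 at the 2 starts of Rpl19 and 29 in Rps3a1, so not all lay at the start itself.

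The table held windows for 66 of the 94 genes, 78 windows in all. A run of at least 8 pyrimidines on the coding strand within 50 bases of the start was present in 75.6% of these windows, against 35.7% of the 32851 windows of all genes. In the windows of the usual genes alone the share was 80.6%. The TOP list of translation factors, messages under the same control, had it in 64.7% of 17 windows and the genes of the mitochondrial ribosome in 34.7% of 75. On the same strand and within the same 100 bases, CTTTCC was present in 30.8% of the ribosomal protein windows against 4.69% of all windows, and CTCTTT in 28.2% against 3.99%; both consist of pyrimidines and can lie inside the runs. CCGGAAG, the core bound by ETS factors, searched on both strands of the 300 bases, was present in 34.6% of the ribosomal protein windows, 34.7% of the mitochondrial ribosome windows and 8.86% of all windows. TATAAA, searched on the coding strand 40 to 15 bases before the start, was present in 1.28% against 1.99%. A match is letters in a window and not a measured site.

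The 94 genes together took 2.32%, 1.88% and 2.36% of all fragments in Tshr-/- libraries 1 to 3, against 2.01%, 2.04% and 2.44% in Tshr+/+ libraries 1 to 3. The highest share was in a Tshr+/+ library and the lowest in a Tshr-/- library, and the ranges overlapped. Summed FPKM came to 14621, 12557 and 13161 in Tshr-/- libraries, against 12674, 13549 and 14122 in Tshr+/+ libraries. Here too the groups overlapped.

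Levels of the usual genes, averaged over the 6 libraries, spanned from 0.949 FPKM for Rps10 to 734 FPKM for Rplp1, with a median of 137 FPKM. Of the 77 genes, 54 were at or above 100 FPKM and 4 were below 20. Among small-subunit genes the 3 highest were Rps3a1, a protein at the mRNA exit side, Rps15 and Rps9. Rps3a1 had 573, 478 and 483 FPKM in Tshr-/- libraries, against 498, 518 and 532 FPKM in Tshr+/+ libraries, with overlapping groups. Rps15 had 476, 464 and 391 FPKM in Tshr-/- libraries, against 437, 478 and 445 FPKM in Tshr+/+ libraries. Rps9 had 374, 408 and 354 FPKM in Tshr-/- libraries, against 381, 411 and 367 FPKM in Tshr+/+ libraries.

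Among large-subunit genes, Rplp1 and Rplp0 were highest. Rplp0, Rplp1 and Rplp2 form the stalk, the flexible arm that recruits translation factors. Rplp1 had 829.8, 700.0 and 735 FPKM in Tshr-/- libraries, against 670.4, 724 and 748 FPKM in Tshr+/+ libraries. Rplp2, its partner, had 119.9, 128 and 116 FPKM in Tshr-/- libraries, against 112, 118 and 133 FPKM in Tshr+/+ libraries. Both genes overlapped between genotypes. Their deposited levels differed by far more than the libraries did, although the 2 proteins work as a pair; the lengths behind them differed as well, 499 bases for Rplp1 and 2072 for Rplp2.

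**Figure D1:**
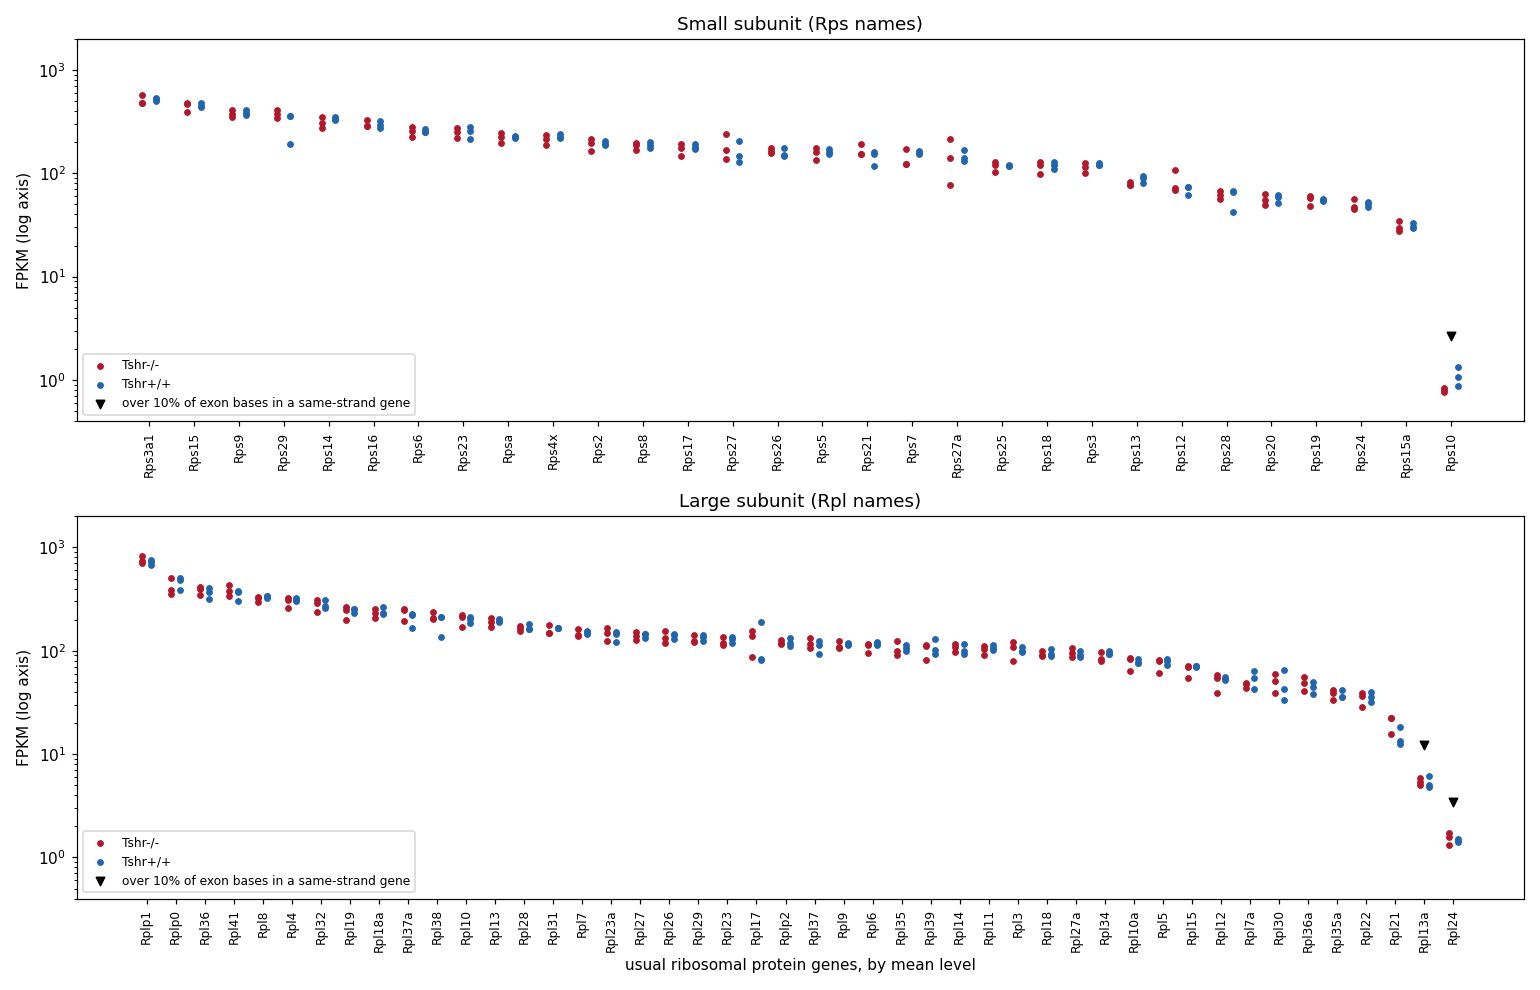
FPKM on a log axis for 30 of the 31 small-subunit (top) and the 46 large-subunit (bottom) usual genes, ordered by mean level, with 3 Tshr-/- libraries in red left of 3 Tshr+/+ libraries in blue. Triangles mark Rps10, Rpl13a and Rpl24, which lie far below the rest at 0.949, 5.37 and 1.51 FPKM.

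The 3 lowest usual genes share a feature of their annotation. Rps10 (chr17:27630418-27636669, minus strand, GRCm38) had 0.834, 0.802 and 0.773 FPKM in Tshr-/- libraries, against 1.35, 1.07 and 0.866 FPKM in Tshr+/+ libraries. At this level the gene did not pass the minimum for testing of 1 FPKM in 3 libraries. In the GENCODE M21 gene models, 20.6% of the exon bases of Rps10 lie inside RPS10-NUDT3, a same-strand gene model listed at 0 in every library. Rpl24 had 47.0% of its exon bases inside the same-strand model Gm28037 and averaged 1.51 FPKM. Rpl13a, known from human cells for a role in silencing inflammatory mRNAs, had 29.4% inside Gm45713 and averaged 5.37 FPKM. Both same-strand models were listed at 0 throughout.

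These 3 were the only usual genes with over 10% of their exon bases in a same-strand gene, and a 4th, Rpl19, had a smaller overlap of 3.52% and averaged 243 FPKM. The 7 usual genes with over 10% of exon bases under a gene on the opposite strand had a median of 118 FPKM. Fau, outside the name rule, had 884, 993 and 649 FPKM in Tshr-/- libraries, against 785, 971 and 763 FPKM in Tshr+/+ libraries. The paralog Rpl36al, with 24.5% of its exon bases in Gm49383, averaged 1.34 FPKM. The labels and headers do not say how overlapping models were counted, and the part of counting in these low values was not tested.

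A nearly identical copy of Rps10 was abundant while Rps10 itself was near 1 FPKM. The processed pseudogene Rps10-ps2, on chromosome 16, had 169, 163 and 159 FPKM in Tshr-/- libraries, against 159, 174 and 168 FPKM in Tshr+/+ libraries. Within the coding sequence it differed from Rps10 at 5 of 496 aligned bases, and 4 of these stand in capitals in the following 60-base stretch of both, from GENCODE M21 transcripts.
Rps10: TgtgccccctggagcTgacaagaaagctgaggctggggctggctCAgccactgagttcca
Rps10-ps2: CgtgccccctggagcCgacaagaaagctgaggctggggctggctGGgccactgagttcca
For Rpl24 and Rpl13a no copy was so high: the highest, Gm9385 and Gm11478, averaged 6.66 and 1.78 FPKM.

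The deposited levels were also lower for longer genes. The deposited gene length, which equals the sum of all GENCODE M21 exon bases for 73 of the 77 usual genes (not for Rps14, Rpl17, Rps18 and Rps28), was 383 to 6270 bases with a median of 1770, whereas the main coding transcript had a median of 774 bases. Across the 77 genes, log2 level and log2 gene length had a Pearson r of −0.41 and a Spearman rho of −0.61, and across the 74 without Rps10, Rpl13a and Rpl24 both were −0.66. Both quantities share the length itself, and genes are not independent replicates. Rps19, whose loss of function causes anaemia, had a gene length of 4685 bases and averaged 55.4 FPKM. Rescaled to its main transcript of 774 bases, it averaged 336 FPKM, close to the median of the 77 on that scale, 337 FPKM. The spread between genes was smaller after rescaling: the SD of log2 levels was 1.503 against 1.581 for the 77 genes, and 0.86 against 1.04 for the 74. The length cancels in the ratio between genotypes, apart from the pseudocount of 1.

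**Figure D2:**
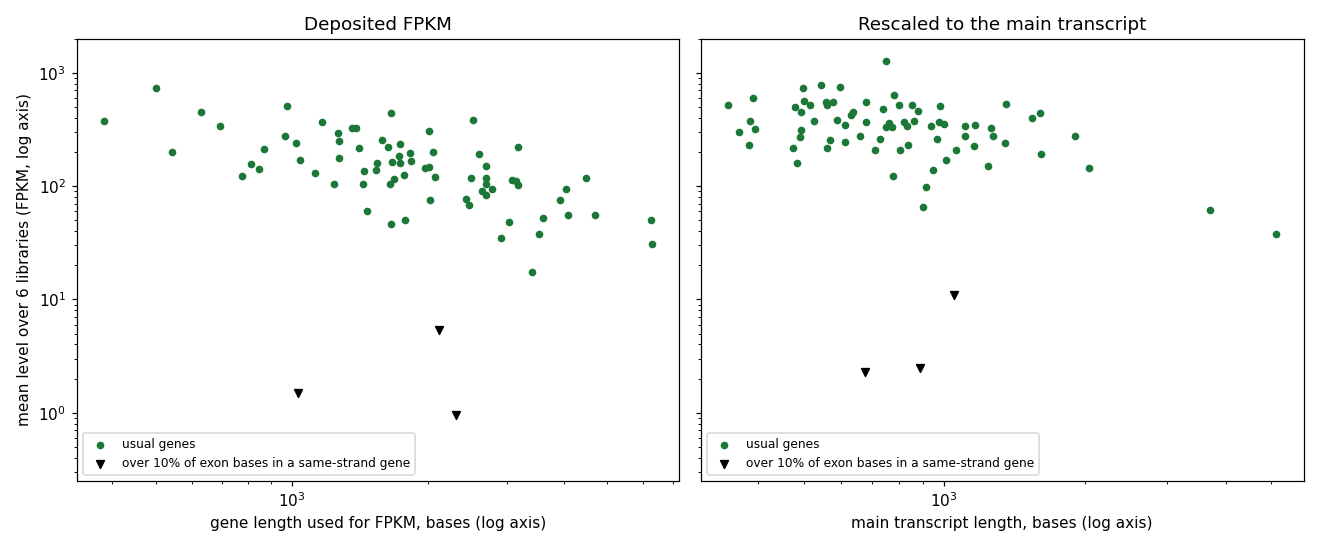
Mean level over 6 libraries against length for the 77 usual genes on log axes, as deposited against gene length (left) and rescaled against the length of the main transcript (right). On the left longer genes have lower levels; triangles mark Rps10, Rpl13a and Rpl24, which stay low on both scales.

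No ribosomal protein gene passed the test between genotypes. Of the 94 genes, 87 had at least 1 FPKM in at least 3 libraries and were tested, 76 of them usual genes, in a limma fit over 10913 genes on log2(FPKM + 1). At a Benjamini-Hochberg adjusted p under 0.05, 0 of the 87 were higher and 0 lower in Tshr-/- libraries, where the background over all genes was 0% higher and 0% lower (0 genes each). At an unadjusted p under 0.05 the count was 0 of 87, against 317 genes or 2.9% of all tested. The voom test on whole fragments also called 0 of 88, where it called 0 of all 13709 genes it tested. The same limma procedure recovered 89 of 100 genes simulated with a 2-fold change and 100 of 100 with a 4-fold change, with 10 false calls among the other genes. The simulation changed only genes with many fragments, gave every gene the same dispersion and held no shifts shared by the genes of a library. It therefore does not give the power of the test in these libraries, or for changes under 2-fold.

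Fold changes of the 87 genes on the log2(FPKM + 1) scale, Tshr-/- over Tshr+/+, spanned −0.24 to 0.41 with a median of −0.03, against a median of −0.01 for all genes. They were above 0 for 30 genes and below 0 for 57, and 52.9% of all genes were below 0. This split depended on scaling: with all libraries brought to equal sums, 55 were above 0 and 32 below, and with quantile scaling 54 and 33. The median of all genes moved with the scaling, to 0.03 with equal sums and 0.00 with quantile scaling. Relative to it the median of the 87 was −0.02 as deposited, −0.01 with equal sums and 0.02 with quantile scaling. Small-subunit genes had a median of −0.03 over 30 tested genes and large-subunit genes a median of −0.03 over 46. Without the library Tshr-/- 2 the median of the 87 was 0.04. With the libraries labelled Tshr-/- 1 and 2 left out, the median was −0.03, a value that rests on Tshr-/- 3 alone, assumed to vary like the Tshr+/+ libraries.

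**Figure D3:**
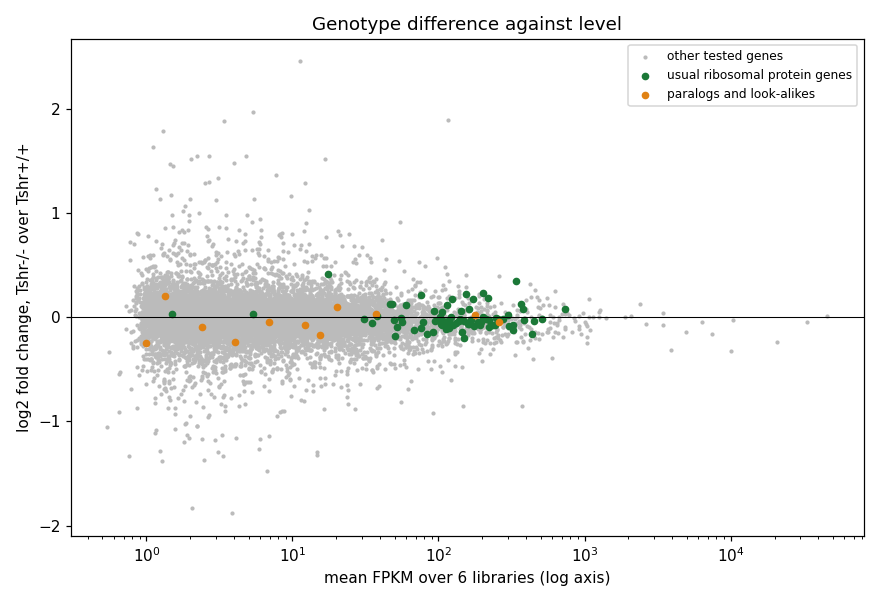
Log2 fold change, Tshr-/- over Tshr+/+, against mean FPKM (log axis) for 10913 tested genes in grey, with the 76 usual ribosomal protein genes in green and 11 paralogs and look-alikes in orange. The ribosomal protein genes lie between −0.24 and 0.41, inside the cloud of all genes.

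The smallest p among the 87 belonged to Rpl21, a large-subunit protein. Rpl21 had 15.7, 22.4 and 22.2 FPKM in Tshr-/- libraries, against 18.4, 12.6 and 13.5 FPKM in Tshr+/+ libraries. The library Tshr-/- 1 lay below the highest Tshr+/+ library, so the groups overlapped. The log2 fold change was 0.41 ± 0.19 (SE), with an unadjusted p of 0.0696 and a limma adjusted p of 0.9997. Rpl21 was also summed with its 38 copies, defined below by shared stretches of sequence, which held 48.6% of the sum. The sum came to 122.4, 121.8 and 120.4 depth-scaled fragments (FPKM multiplied by gene length in kilobases) in Tshr-/- libraries, against 112.8, 104.8 and 110.3 in Tshr+/+ libraries. These sums did not overlap, the 1 such case among the 77 usual genes, where 6.77% of all tested genes, taken without copies, did not overlap. The log2 fold change of the sum was 0.15, with a limma adjusted p of 0.9997.

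Rpl22l1 was the 1 tested member whose groups did not overlap, where 6.77% of all tested genes did not, 3.23% lying higher and 3.55% lower in Tshr-/- libraries. It is a paralog of Rpl22, an RNA-binding large-subunit protein with a role in lymphocyte development. Rpl22l1 had 14.2, 14.9 and 14.02 FPKM in Tshr-/- libraries, against 17.1, 15.7 and 16.3 FPKM in Tshr+/+ libraries. The log2 fold change was −0.17 ± 0.09 (SE), with an unadjusted p of 0.109 and a limma adjusted p of 0.9997. Rpl22 itself had 38.6, 28.8 and 36.2 FPKM in Tshr-/- libraries, against 32.0, 35.6 and 39.8 FPKM in Tshr+/+ libraries. Among untested members Rps10, given above, did not overlap either, but with its copies added it did. Rpl9-ps1, also untested, had 0, 0 and 0.172 FPKM in Tshr-/- libraries, against 0.509, 0.524 and 0.188 FPKM in Tshr+/+ libraries, again without overlap.

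The other genes with the smallest p on the lower side were Rps13, Rps7, Rpl34 and Rpl7a, all with overlapping groups. Rps13 had 82.3, 76.7 and 76.7 FPKM in Tshr-/- libraries, against 89.4, 80.5 and 94.6 FPKM in Tshr+/+ libraries, a log2 fold change of −0.16 ± 0.11 (SE). Rps7, which in human cells binds MDM2, had 173, 122 and 124 FPKM in Tshr-/- libraries, against 156, 155 and 163 FPKM in Tshr+/+ libraries. Only the library Tshr-/- 1 was above the Tshr+/+ range. With copies added, which held 11.6% of the sum, Rps7 came to 387, 275 and 323 depth-scaled fragments in Tshr-/- libraries. The Tshr+/+ libraries had 342, 344 and 366. Rpl34 had 97.9, 83.0 and 80.3 FPKM in Tshr-/- libraries, against 100.1, 93.9 and 93.1 FPKM in Tshr+/+ libraries. Rpl7a had 47.7, 49.2 and 43.8 FPKM in Tshr-/- libraries, against 42.5, 54.8 and 64.3 FPKM in Tshr+/+ libraries. Its 26 copies held 44.0% of the sum, which was 156.9, 156.0 and 150.6 depth-scaled fragments in Tshr-/- libraries. The Tshr+/+ libraries had 150.8, 172.8 and 175.3. The unadjusted p-values of these 4 genes were 0.176, 0.25, 0.27 and 0.313 in the limma fit.

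On the higher side the smallest p after Rpl21 belonged to Rps29, Rps21, Rpl38 and Rps12, and in each the library Tshr+/+ 1 was lowest. Rps29, a zinc-binding small-subunit protein mutated in some families with Diamond-Blackfan anaemia, had 408, 372 and 342 FPKM in Tshr-/- libraries, against 193, 359 and 360.0 FPKM in Tshr+/+ libraries. Its log2 fold change was 0.35 ± 0.26 (SE), and without the library Tshr+/+ 1 it was 0.05. Rpl38, known in mice for the translation of Hox mRNAs, had 239, 203 and 208 FPKM in Tshr-/- libraries, against 134, 213 and 214 FPKM in Tshr+/+ libraries. Its log2 fold change was 0.24 ± 0.20 (SE), and without Tshr+/+ 1 it was 0.02. In both genes Tshr+/+ 1 alone stood apart and the other 5 libraries were close.

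Rps21 had 193, 155 and 154 FPKM in Tshr-/- libraries, against 118, 161 and 152 FPKM in Tshr+/+ libraries. Its log2 fold change was 0.22 ± 0.16 (SE), and 0.08 without Tshr+/+ 1. Rps12 had 107, 72.0 and 68.4 FPKM in Tshr-/- libraries, against 61.6, 73.3 and 73.7 FPKM in Tshr+/+ libraries. Here the library Tshr-/- 1 was high as well as Tshr+/+ 1 low. Without Tshr-/- 1 the log2 fold change of Rps12 was 0.02, against 0.22 ± 0.19 (SE) with all libraries.

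Short transcripts are common to these genes, a feature looked at after their values were seen. Of the 77 usual genes, 13 had a main transcript under 500 bases, and Tshr+/+ 1 was the lowest of the 6 libraries for 9 of them. Rps29, Rps21, Rpl38 and Rps12, already described above as lowest there, are among the 9, so this count is no independent support. Their median deviation from the mean of the 6 libraries, on the log2 scale, was 0.19, −0.05 and −0.00 in Tshr-/- libraries 1 to 3, against −0.26, 0.04 and 0.11 in Tshr+/+ libraries 1 to 3. The 63 tested usual genes with longer main transcripts had 0.12, −0.15 and −0.01 in Tshr-/- libraries, against −0.04, 0.02 and 0.08 in Tshr+/+ libraries. The log2 fold change was above 0 for 10 of the 13 short genes and for 16 of the 63 longer ones. The 10 again include Rps29, Rps21, Rpl38 and Rps12, which were picked for being higher. The 48 other protein-coding genes with a gene length under 500 bases had a median deviation of 0.13, 0.01 and −0.20 in Tshr-/- libraries, against −0.11, 0.15 and −0.06 in Tshr+/+ libraries. The part of transcript length in these values was not tested.

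Ribosomal protein genes shared shifts from library to library that did not follow genotype. The median deviation of the 87 genes was 0.12, −0.12 and −0.01 in Tshr-/- libraries 1 to 3, against −0.04, 0.02 and 0.08 in Tshr+/+ libraries 1 to 3. Above their own mean stood 76, 19 and 41 of the 87 genes in Tshr-/- libraries, against 27, 50 and 73 in Tshr+/+ libraries. On this scale the highest and the lowest library were thus both Tshr-/-, numbers 1 and 2. By share of all fragments, given above, Tshr-/- 2 was also lowest, but Tshr+/+ 3 was highest at 2.44%. These measures differ in the depth used, and the share weighs each gene by its fragments. Over all tested genes the medians were within 0.01 of 0 in every library. Small and large subunits went alike: the small-subunit medians were 0.14, −0.13 and −0.04 in Tshr-/- libraries, against −0.04, 0.03 and 0.07 in Tshr+/+ libraries, and the large-subunit medians 0.11, −0.13 and 0.01, against −0.06, 0.01 and 0.08.

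**Figure D4:**
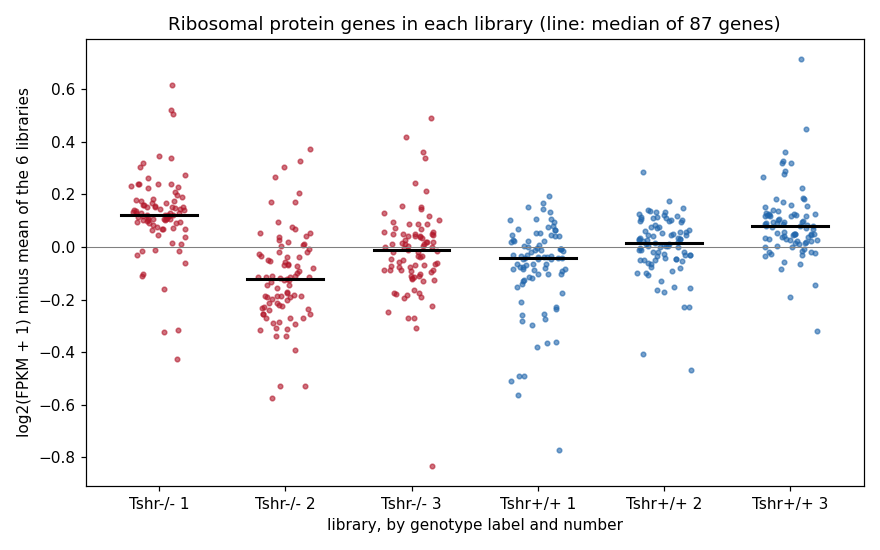
Deviation of each of the 87 tested ribosomal protein genes from its mean over the 6 libraries, on the log2(FPKM + 1) scale, with Tshr-/- libraries left in red and Tshr+/+ libraries right in blue; black lines are medians. Tshr-/- 1 is highest at 0.12 and Tshr-/- 2 lowest at −0.12, with the Tshr+/+ libraries between them.

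Marker genes of cell types also varied between libraries. The median deviation of 11 mature neutrophil genes was 0.03, 0.29 and −0.41 in Tshr-/- libraries 1 to 3, against −0.03, 0.09 and −0.02 in Tshr+/+ libraries 1 to 3, so that Tshr-/- 2 was highest where it was lowest for ribosomal proteins. The summed FPKM of that list was 131499, 144938 and 93269 in Tshr-/- libraries, against 122753, 140425 and 115974 in Tshr+/+ libraries. The 12 genes of dividing cells had 0.09, −0.21 and 0.10 in Tshr-/- libraries, against −0.06, −0.01 and 0.00 in Tshr+/+ libraries, and 7 early neutrophil genes 0.24, −0.14 and 0.24, against −0.18, −0.23 and 0.14. Of these lists 11 of 11, 12 of 12 and 7 of 7 genes were above the minimum for testing. Other marker lists had fewer or more genes tested, and each median log2 fold change covers the tested genes alone. It was −0.08 for the monocyte list (10 of 10 tested), −0.57 for B cells (6 of 10) and 0.30 for T and NK cells (3 of 9). For erythroid cells it was 0.74 (5 of 10), for progenitors 0.08 (4 of 7), for osteoclasts 0.30 (4 of 8) and for CD11b selection −0.04 (3 of 3). In none did a gene pass the limma test, and no gene of any of these lists was at 0 in all libraries. Summed erythroid FPKM was 163, 130.3 and 99.1 in Tshr-/- libraries, against 63.9, 134 and 58.7 in Tshr+/+ libraries. The part of cell types in the ribosomal protein levels was not tested.

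Rpl8 and Rpl28 were among the steadiest members. Rpl8 had 329, 299 and 326 FPKM in Tshr-/- libraries, against 338, 326 and 337 FPKM in Tshr+/+ libraries, a coefficient of variation of 4.35% over the 6. Rpl28 had 175, 167 and 157 FPKM in Tshr-/- libraries, against 162, 181 and 164 FPKM in Tshr+/+ libraries. For the median usual gene the coefficient was 9.39%. The largest coefficients among usual genes were 37.5% for Rpl17 and 30.7% for Rps27a. Rps27a, which encodes a small-subunit protein fused to ubiquitin, had 213, 139 and 77.4 FPKM in Tshr-/- libraries, against 131, 141 and 167 FPKM in Tshr+/+ libraries. Its highest and its lowest library were both Tshr-/-.

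Genes known for roles beyond the ribosome had overlapping values too. Rpl5 and Rpl11 hold the 5S ribosomal RNA and, when free, bind Mdm2, the inhibitor of p53. Rpl5 averaged 73.7 ± 10.98 FPKM in Tshr-/- libraries and 78.6 ± 4.86 FPKM in Tshr+/+ libraries (SD, n = 3 each). Rpl11 averaged 102 ± 9.86 FPKM in Tshr-/- libraries and 107 ± 5.77 FPKM in Tshr+/+ libraries (SD, n = 3 each). Rps19 had 60.5, 48.5 and 57.2 FPKM in Tshr-/- libraries, against 53.9, 55.5 and 57.0 FPKM in Tshr+/+ libraries. Rps14 had 350.4, 308 and 277 FPKM in Tshr-/- libraries, against 338, 348 and 327 FPKM in Tshr+/+ libraries. Rps6, the substrate of the S6 kinases, had 284, 222 and 259 FPKM in Tshr-/- libraries, against 253, 269 and 249.6 FPKM in Tshr+/+ libraries. All 5 overlapped between genotypes.

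The same held for Rps3, Rpsa, Rpl10 and Rpl26. Rpl26, known from human cells for binding the mRNA of p53, had 157, 118 and 132 FPKM in Tshr-/- libraries, against 129, 141 and 145 FPKM in Tshr+/+ libraries. Rps3, which also has a DNA repair activity, had 125, 100.1 and 116 FPKM in Tshr-/- libraries, against 119, 125 and 119 FPKM in Tshr+/+ libraries. Rpsa, also known as the laminin receptor, had 243, 197 and 222 FPKM in Tshr-/- libraries, against 221, 223 and 230.4 FPKM in Tshr+/+ libraries. Rpl10, which joins the large subunit late in its assembly, had 213, 170.0 and 223 FPKM in Tshr-/- libraries, against 210.0, 187 and 203 FPKM in Tshr+/+ libraries. Rack1, outside the name rule, had 84.0, 66.0 and 87.2 FPKM in Tshr-/- libraries, against 83.9, 80.9 and 86.0 FPKM in Tshr+/+ libraries.

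For some members, copies of similar sequence varied between libraries in the opposite direction to the gene. A copy here is an annotated pseudogene or a look-alike member sharing at least 100 stretches of 50 bases with the transcripts of a usual gene. Each was assigned to the usual gene with which it shared most, and genes of other kinds were left out. The rule can be met by part of a transcript, and most copies were not aligned to the gene. By this definition there were 389 copies of 65 of the 77 genes, 383 of them pseudogenes and the rest look-alikes, and 339 were above 0 in some library. Their mean was at least 1 FPKM for 144, at least 10 for 56 and at least 100 for 10. Of the 56, 5 varied more than 5-fold between libraries: Gm8730 and Gm9625, copies of Rplp0, Rpl30-ps10 and Gm12191, copies of Rpl30, and Gm12411, a copy of Rpl21. These were singled out after their values were seen.

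Rplp0 and Gm8730 ran opposite to each other. Rplp0 (chr5:115559467-115563727, plus strand) had 389, 354 and 503 FPKM in Tshr-/- libraries 1 to 3, against 488, 390.0 and 508 FPKM in Tshr+/+ libraries 1 to 3. Gm8730, on chromosome 8, had 235, 219 and 3.49 FPKM in Tshr-/- libraries, against 3.69, 232 and 3.12 FPKM in Tshr+/+ libraries. The copy was high in Tshr-/- 1, Tshr-/- 2 and Tshr+/+ 2, the same 3 libraries in which Rplp0 was low. Gm9625 followed it at 38.1, 30.2 and 0.364 FPKM in Tshr-/- libraries, against 0.492, 30.5 and 0.510 FPKM in Tshr+/+ libraries. The coding sequences of Rplp0 and Gm8730 differ at 12 of 954 bases, 3 of which are in capitals in this 60-base stretch.
Rplp0: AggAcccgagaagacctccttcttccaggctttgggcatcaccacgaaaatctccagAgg
Gm8730: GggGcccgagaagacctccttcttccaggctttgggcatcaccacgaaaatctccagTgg
In depth-scaled fragments Rplp0 and its 5 copies together came to 906, 827 and 839 in Tshr-/- libraries, against 814, 897 and 846 in Tshr+/+ libraries. The coefficient of variation over the 6 libraries was 4.45% for the sum and 15.6% for Rplp0 alone, and the log2 fold change was 0.01 for the sum and −0.16 for Rplp0 alone.

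**Figure D5:**
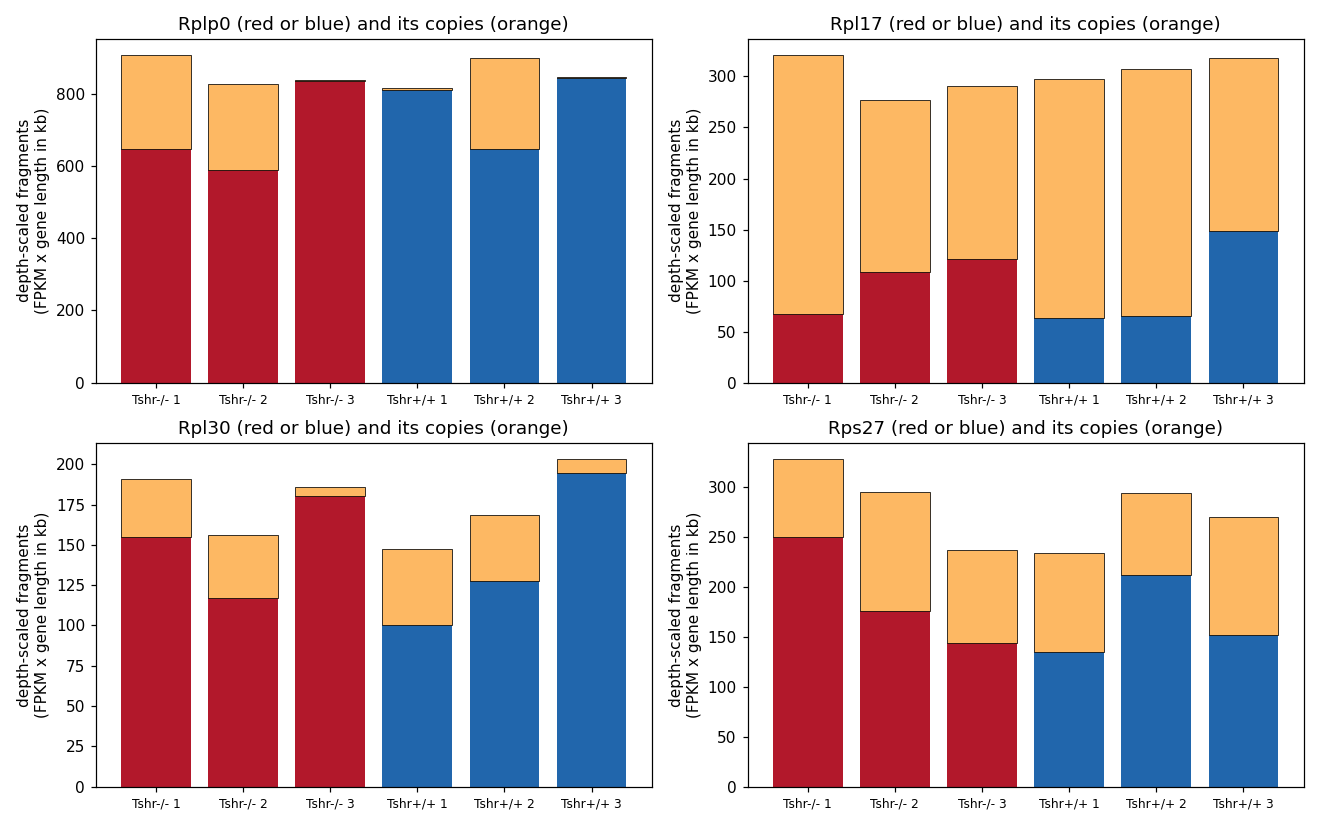
Depth-scaled fragments (FPKM multiplied by gene length in kilobases) in each library for Rplp0, Rpl17, Rpl30 and Rps27. The genes are red in Tshr-/- libraries, left, and blue in Tshr+/+ libraries, right, with all their copies stacked above in orange. Copies of Rplp0 are near 0 in Tshr-/- 3, Tshr+/+ 1 and Tshr+/+ 3, where Rplp0 itself is highest.

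Rpl17 and its pseudogene Rpl17-ps10 also ran opposite. Rpl17 had 86.5, 140.4 and 156 FPKM in Tshr-/- libraries, against 81.6, 84.0 and 192 FPKM in Tshr+/+ libraries. Rpl17-ps10 had 272, 142 and 151 FPKM in Tshr-/- libraries, against 231, 259 and 124 FPKM in Tshr+/+ libraries. With 11 copies, which held 68.3% of the fragments, the sum was 321, 277 and 291 depth-scaled fragments in Tshr-/- libraries, against 298, 308 and 319 in Tshr+/+ libraries. Its coefficient of variation was 5.58%, against 37.5% for Rpl17 alone.

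Rpl30 had 51.3, 38.8 and 59.8 FPKM in Tshr-/- libraries, against 33.2, 42.3 and 64.5 FPKM in Tshr+/+ libraries. Its copy Gm12191, on chromosome 11, had 58.1, 54.9 and 9.84 FPKM in Tshr-/- libraries, against 70.3, 61.2 and 11.8 FPKM in Tshr+/+ libraries. The copy was low in both libraries numbered 3, in which Rpl30 was highest. The coding sequences differ at 1 of 348 bases, in capitals here.
Rpl30: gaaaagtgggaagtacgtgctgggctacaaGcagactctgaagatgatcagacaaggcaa
Gm12191: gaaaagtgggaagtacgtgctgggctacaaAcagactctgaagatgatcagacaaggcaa

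Rps27 and Rps27rt, a protein-coding look-alike on chromosome 9, have coding sequences identical over 255 bases, so the 2 can be told apart only outside them. Rps27 had 240.0, 169 and 138 FPKM in Tshr-/- libraries, against 129.8, 203 and 146 FPKM in Tshr+/+ libraries. Rps27rt had 206, 318 and 249 FPKM in Tshr-/- libraries, against 262, 219.5 and 313 FPKM in Tshr+/+ libraries. Rps27rt was lowest in Tshr-/- 1 and Tshr+/+ 2, the libraries in which Rps27 was highest. Rps12 and Rps12-ps3 were likewise identical over 399 coding bases, and Rps12-ps3 had 200.5, 169 and 168 FPKM in Tshr-/- libraries, against 175, 172 and 182 FPKM in Tshr+/+ libraries.

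Over the family as a whole, adding copies made a small difference. The median coefficient of variation of the usual genes was 8.89% with copies added and 9.39% without, lower for 40 genes and higher for 25. Copies held more than 10% of the summed fragments for 22 genes and more than 50% for 3. Where copies were added the largest coefficient was 28.4%, for Rps27a. The opposite variation of gene and copy in Rplp0, Rpl17, Rpl30 and Rps27, described after their values were seen, did not follow genotype. The labels and headers do not say how fragments matching several places were assigned, and the part of this step in these values was not tested.

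Among the 17 paralogs and look-alikes, 11 were tested, and their median log2 fold change was −0.05, with 4 above 0 and 7 below. Rps27l, a paralog of Rps27 known as a p53 target, had 42.8, 29.5 and 41.0 FPKM in Tshr-/- libraries, against 34.7, 34.5 and 40.4 FPKM in Tshr+/+ libraries. Rpl7l1 averaged 12.2 FPKM and Rps19bp1, which binds Rps19 and is not itself a ribosomal protein, 6.91 FPKM. Rpl36al had the largest coefficient of variation of the tested members, 44.9%, with 1.88, 0.580 and 2.20 FPKM in Tshr-/- libraries, against 0.911, 1.25 and 1.24 FPKM in Tshr+/+ libraries. Rpl9-ps6 averaged 20.2, Rpl27-ps3 4.02, Rpl10-ps3 2.38 and Rpl36a-ps1 0.994 FPKM. The tissue-restricted paralogs were low: Rpl3l, a muscle form, averaged 0.730 FPKM, Rpl39l, a testis form, 0.385 FPKM and Rpl10l, also of testis, 0.0842 FPKM. Rpl9-ps1 averaged 0.232 FPKM, and Rpl36-ps4 and Rpl13a-ps1 were listed at 0 in all 6 libraries.

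Genes that serve, assemble or control ribosomes did not pass the test either, with 0 calls by limma in each of the following lists. Of 22 translation factors and other TOP messages, 3 fold changes were above 0 and 19 below, with a median of −0.06. The most abundant, Eef1a1, which brings aminoacyl-tRNA to the ribosome, had 936, 719.6 and 1023 FPKM in Tshr-/- libraries, against 999, 886 and 926 FPKM in Tshr+/+ libraries. Eif3h, a subunit of initiation factor eIF3, had 86.5, 74.1 and 89.4 FPKM in Tshr-/- libraries, against 103, 99.2 and 87.9 FPKM in Tshr+/+ libraries, with an unadjusted p of 0.125. This list too was lowest in Tshr-/- 2, with median deviations of 0.07, −0.16 and 0.05 in Tshr-/- libraries, against 0.05, −0.00 and 0.01 in Tshr+/+ libraries.

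Of 35 assembly factors tested, 14 fold changes were above 0 and 21 below, with a median of −0.02. Rrs1, needed for the large subunit, had 7.77, 6.20 and 5.77 FPKM in Tshr-/- libraries, against 8.68, 9.02 and 7.13 FPKM in Tshr+/+ libraries, and an unadjusted p of 0.0798. Eif6, which keeps the new large subunit from joining too early, had 25.9, 24.1 and 25.4 FPKM in Tshr-/- libraries, against 30.3, 30.3 and 25.9 FPKM in Tshr+/+ libraries. Their median deviations were 0.15, −0.19 and −0.01 in Tshr-/- libraries, against 0.10, 0.03 and −0.07 in Tshr+/+ libraries, again lowest in Tshr-/- 2.

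The 13 genes of RNA polymerase I and its factors, which transcribe ribosomal RNA, had a median of −0.08, with 5 above 0 and 8 below. Taf1a, of the promoter selectivity factor, had 1.06, 1.33 and 1.61 FPKM in Tshr-/- libraries, against 3.24, 2.28 and 1.68 FPKM in Tshr+/+ libraries. These groups did not overlap, and the log2 fold change was −0.53 ± 0.20 (SE) with an unadjusted p of 0.0325 and a limma adjusted p of 0.9997. The 9 tested chaperones of new ribosomal proteins had a median of −0.05. The 16 genes that control ribosome making had a median of 0.00, with 9 above 0 and 7 below. Among them Myc, which drives ribosomal protein and ribosomal RNA genes, had 6.93, 4.20 and 4.88 FPKM in Tshr-/- libraries, against 4.26, 4.51 and 4.18 FPKM in Tshr+/+ libraries.

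The mitochondrial ribosome, built from a separate set of proteins, served for comparison. Its 75 tested genes had 33 fold changes above 0 and 42 below and a median of −0.02, against −0.03 for the cytosolic genes. Mrpl36 had the smallest p on the higher side, with 14.9, 16.4 and 13.3 FPKM in Tshr-/- libraries, against 10.2, 12.9 and 13.1 FPKM in Tshr+/+ libraries. Mrpl45 had 8.40, 10.1 and 8.35 FPKM in Tshr-/- libraries, against 11.4, 12.5 and 9.21 FPKM in Tshr+/+ libraries. Between libraries the mitochondrial list varied less than the cytosolic one, with median deviations of 0.04, −0.04 and 0.01 in Tshr-/- libraries, against −0.04, −0.02 and 0.05 in Tshr+/+ libraries.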

How the data were processed

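RNA from CD11b+ marrow cells of 6 libraries, 3 per genotype, was analysed from 1 deposited table of FPKM computed by the authors on GRCm38 (mm10), per the submitters' processing notes and the file headers. No source used here names the aligner or counter. All values came out as whole fragments (tolerance 0.01) when multiplied by length and depth. FPKM were tested as log2(FPKM + 1) with limma 3.58.1 in R 4.3.3, without a block, on genes reaching 1 FPKM in 3 or more libraries, with Benjamini-Hochberg adjustment over all of them, at a threshold of 0.05. Fragments were summed and copies sought with Python 3.11.15 on GENCODE M21 transcripts; the main transcript is the one best ranked there by its annotation tags and, among equals, the shortest. The procedure was tested on simulated data. Deviations from group means of libraries sharing a number correlated over genes at 0.24, 0.26 and 0.47, all over 0.1. However, Tshr-/- 1 correlated better with Tshr+/+ 2, at 0.34, and the labels give no reason for pairing. Whether the numbers pair libraries is thus not settled. The main fit had no block, and an alternative fit used the number as a block. Nothing says that libraries came from separate mice, so p-values measure only the spread between these libraries. Members and lists were chosen with earlier results of these data known. Named genes were the 3 highest and lowest of each subunit, the 5 smallest p in each direction, genes without overlap, stalk genes, look-alikes, the 3 steadiest and most variable members and genes of known role. Some genes that this rule names are not reported here.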

Additional observations from a re-analysis of the deposited data

How the results depend on the processing

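In each of 21 alternatives (pseudocount, filters, scaling, robust and weighted fits, the replicate block, whole fragments, libraries left out, copies added) 0 ribosomal protein genes passed the test, with the smallest limma adjusted p between 0.142 and 1; the fit without the libraries labelled Tshr-/- 1 and 2 leaves 1 Tshr-/- library and is a weak test. With the replicate block the median log2 fold change of the 87 genes was −0.03, the same by design as without it, and the block changed no call. Leaving out 1 library at a time gave medians from −0.092 to 0.043, and array weights gave 0.084. Over the 21 alternatives the median was below 0 in 17 and above 0 in 4. The 17 include the replicate block, the robust fit and the restriction to protein-coding genes, which cannot change these fold changes and add no support. The other pseudocounts, also among the 17, hardly moved the median. Of all genes, 24 passed with array weights (13 higher, 11 lower) and 18 without both libraries numbered 3 (10 higher, 8 lower); leaving out 1 library gave 0 to 2, the 2 without Tshr-/- 3. The cause was not tested. Adding copies, rescaling to the main transcript, sorting by transcript length and the overlap with same-strand genes, with its 10% limit, were chosen after seeing the data.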
